A study of Mus musculus with 4 samples.

Results

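The genes described here were 9 genes of muscle atrophy and of the FoxO and glucocorticoid responses: Trim63, Fbxo32, Foxo1, Foxo3, Klf15, Depp1, Pdk4, Ddit4 and Slc25a25. They were found by symbol among the 32285 features of a spatial RNA experiment, and all 9 were present once. Depp1 and Slc25a25 were included because they were among the largest decreases at day 7, so their day 7 values are given as a description and support nothing. The sections came from tibial muscle of Nse-Bmp4 mice on the C57BL/6 background, aged 6 to 8 weeks, which carry a murine Bmp4 cDNA behind the rat neuron-specific enolase promoter and form bone in injured muscle (heterotopic ossification). All 4 groups carried the transgene, so no wild-type muscle stood beside them. Day 0 was uninjured muscle, and the others were taken 1, 3 and 7 days after cardiotoxin, a snake venom toxin that kills myofibres, was injected. Each day was 1 section, and the labels speak of 3 mixed tibial muscles per group without saying how these map onto a section. No spread between animals could therefore be measured, no test was possible, and every interval below is a 95% interval of counting error alone.

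As background, Trim63 (MuRF1) and Fbxo32 (atrogin-1) are ubiquitin ligases of muscle that mark wasting after fasting, denervation or glucocorticoid excess. The transcription factors FoxO1 and FoxO3 activate both genes when insulin and Akt signalling is low, and the glucocorticoid receptor acts on the same genes, in part through KLF15. Depp1 is a FoxO-responsive gene. Pdk4 encodes a kinase that keeps pyruvate out of mitochondrial oxidation, Ddit4 (REDD1) an inhibitor of mTORC1, and Slc25a25 a calcium-regulated carrier of ATP-Mg and phosphate in the inner mitochondrial membrane.

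The promoters of Trim63, Klf15, Slc25a25 and Depp1 are shown because the first 3 hold a motif searched for here and the last belongs to the gene with the lowest day 7 ratio. They are the 250 bases before an annotated start in RefSeq, build GRCm38.p6 (mm10), read 5′ to 3′ on the gene's strand, with matches in capitals. RefSeq windows were at hand for 8 of the 9 genes, 10 windows in all, since Slc25a25 had 3. Both strands were searched for TGTTTAC (FoxO core), GAACA and TGTTC with 3 bases between (glucocorticoid receptor palindrome), TGACGTCA (CRE, a cAMP response element) and CACGTG (E-box), none of which overlapped here.
Trim63, chr4:134314870-134315119, plus strand: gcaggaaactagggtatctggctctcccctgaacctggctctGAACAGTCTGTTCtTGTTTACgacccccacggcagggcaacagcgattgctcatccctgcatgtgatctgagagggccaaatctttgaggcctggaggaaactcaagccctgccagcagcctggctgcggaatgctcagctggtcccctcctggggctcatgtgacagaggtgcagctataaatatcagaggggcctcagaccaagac
Klf15, chr6:90462326-90462575, plus strand: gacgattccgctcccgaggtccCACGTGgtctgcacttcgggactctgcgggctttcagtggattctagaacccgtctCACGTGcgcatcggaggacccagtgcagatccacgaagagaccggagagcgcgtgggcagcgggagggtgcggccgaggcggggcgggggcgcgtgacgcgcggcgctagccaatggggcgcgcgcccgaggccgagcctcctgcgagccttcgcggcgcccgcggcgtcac
Slc25a25, the window of the third start, chr2:32424067-32424316, minus strand: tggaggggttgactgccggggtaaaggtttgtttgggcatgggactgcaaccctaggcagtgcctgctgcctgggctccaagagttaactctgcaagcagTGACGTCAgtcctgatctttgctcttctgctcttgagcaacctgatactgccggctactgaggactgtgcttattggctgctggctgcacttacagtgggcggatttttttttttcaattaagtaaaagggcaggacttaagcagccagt
Depp1, chr6:116650434-116650683, plus strand: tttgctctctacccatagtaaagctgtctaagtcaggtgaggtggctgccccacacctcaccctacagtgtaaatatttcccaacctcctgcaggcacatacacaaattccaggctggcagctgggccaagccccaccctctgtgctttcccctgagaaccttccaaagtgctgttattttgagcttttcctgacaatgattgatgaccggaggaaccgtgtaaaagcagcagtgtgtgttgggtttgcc

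The Trim63 window held the full glucocorticoid receptor palindrome, 208 to 196 bases before the start, next to a FoxO core at 194 to 188 bases. The palindrome was found in 13 of 32851 promoter windows of the mouse table (0.0396%), and the FoxO core in 1040 (3.17%). The Klf15 window held the E-box at 228 to 223 and at 172 to 167 bases before the start, a motif of 1978 windows (6.02%). The Slc25a25 window held a CRE at 150 to 143 bases, a motif of 508 windows (1.55%). The Depp1 window shown, the other 2 windows of Slc25a25, and the windows of Foxo1, Foxo3, Pdk4 and Ddit4, held none of these letters. A match is a description of the sequence and does not show binding.

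Sections differed in depth and in make-up. They held 2107 to 3032 spots and between 16777832 and 56113066 UMIs (unique molecular identifiers, counts of captured RNA molecules), and the day 1 section was the shallowest, with a median of 6322 UMIs per spot against 12119.5 to 21029 in the others. A list of 15 adult myofibre genes, Acta1 and Ckm among them, took 27.8%, 15.0%, 9.14% and 16.2% of UMIs at days 0, 1, 3 and 7. The tissue was thus muscle on every day but held a smaller share of these genes after injury. The list holds fast fibre genes such as Myh4 and no gene of the slow fibre list used below. Myofibre RNA, myofibre share and muscle-rich refer to this adult list throughout. Levels are given in CPM, the UMIs of a gene scaled to the same total of all UMIs in each section. Slow fibre genes did not fall with the adult list, and summed to 630, 1636.5, 846 and 1036 CPM at days 0, 1, 3 and 7. Monocyte/macrophage genes summed to 391 CPM in the uninjured section and 7489 CPM on day 3, and cartilage genes to 5.20 CPM in the uninjured section and 1472 CPM on day 7. In such sections fewer cells of a type and less RNA per cell cannot be told apart. The same position barcodes recur by design (1341 of 4078 in all 4 sections) and mark no shared cells.

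Both ubiquitin ligases were highest at day 1. Trim63 stood at 278, 1176, 516 and 223 CPM at days 0, 1, 3 and 7. Fbxo32 stood at 25.6, 321, 90.0 and 79.9 CPM on the same days. Relative to day 0, Trim63 was 4.24-fold higher at day 1 (log2 ratio 2.08, interval 2.05 to 2.12) and 1.86-fold higher at day 3, and it was 1.24-fold lower at day 7. Fbxo32 was 12.5-fold higher at day 1 (3.65, interval 3.55 to 3.74), 3.51-fold higher at day 3 and 3.12-fold higher at day 7. The 2 ligases thus differed at day 7, where Trim63 lay below the uninjured level and Fbxo32 above it. The order of days was 1, 3, 0, 7 for Trim63 and 1, 3, 7, 0 for Fbxo32, and no neighbouring days had a ratio whose interval held 1.

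Of the transcription factors, Foxo1 and Foxo3 followed nearly the same course. Foxo1 stood at 17.3, 11.0, 13.6 and 28.6 CPM at days 0, 1, 3 and 7, and Foxo3 at 18.9, 12.5, 18.0 and 31.4 CPM. In CPM both were lowest at day 1 and highest at day 7, at 1.66-fold over day 0, whereas relative to Acta1 both stood above day 0 on every later day. The Foxo3 ratio of day 0 to day 3, 1.05, had an interval of 0.958 to 1.15. Klf15 stood at 14.2, 12.2, 3.56 and 12.1 CPM. In CPM it was low at day 3 alone, 3.98-fold below day 0 (log2 ratio -1.99, interval -2.23 to -1.76). Its levels at days 0, 1 and 7 were close, the ratio of day 0 to day 1 being 1.16 (0.991 to 1.37) and that of day 1 to day 7 1.01 (0.855 to 1.19). At day 3 Klf15 was 1.51-fold lower relative to Acta1, and 2.22-fold lower in muscle-rich spots on 36 UMIs.

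Depp1, Slc25a25 and Ddit4 were highest in uninjured muscle and lower on every later day. Depp1 stood at 75.7, 15.0, 20.4 and 8.84 CPM at days 0, 1, 3 and 7. Slc25a25 stood at 137, 28.1, 37.4 and 18.6 CPM. Ddit4 stood at 148, 15.7, 44.4 and 39.8 CPM. Depp1 and Slc25a25 had the same order of days (0, 3, 1, 7), whereas Ddit4 was lowest at day 1. At day 1 Ddit4 was 9.46-fold lower than at day 0 (log2 ratio -3.24, interval -3.43 to -3.06), Depp1 5.04-fold lower and Slc25a25 4.86-fold lower. At day 7, the contrast that chose them, Depp1 was 8.55-fold and Slc25a25 7.34-fold lower. Pdk4 went a different way, with 128, 191, 98.1 and 57.8 CPM, and was 1.49-fold above the uninjured level on day 1 and 2.22-fold below it on day 7 in CPM. Its direction depended on the scale: in muscle-rich spots it lay below day 0 on day 1 too (105 against 125 CPM), and relative to Acta1 it was 2.95-fold higher at day 1, 2.03-fold higher at day 3 and within 2-fold at day 7 (log2 ratio -0.24).

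**Figure D1:**
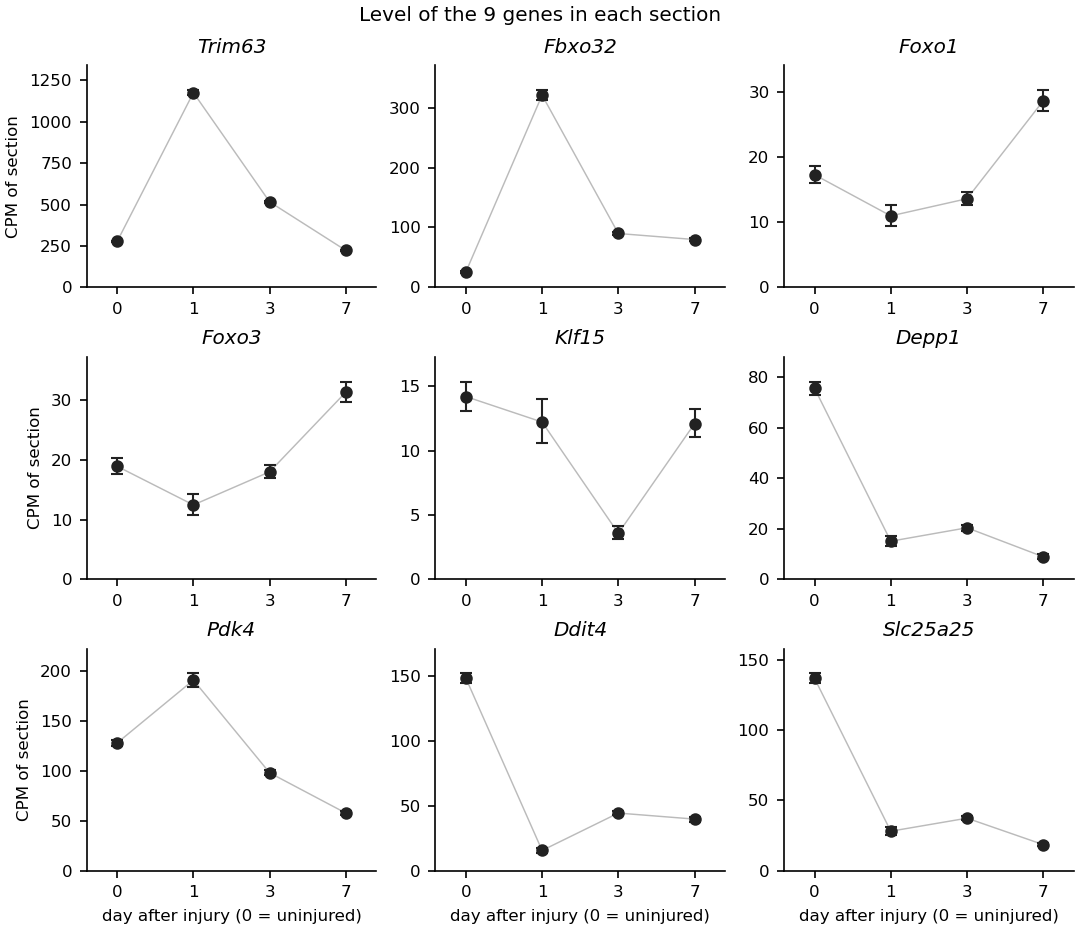
Level of each gene (CPM of all UMIs of a section, linear axis from 0) against the day after injury. Points are single sections, bars are 95% counting intervals and grey lines join the days. Trim63, Fbxo32 and Pdk4 peaked at day 1, Foxo1 and Foxo3 were highest at day 7, Klf15 was low at day 3, and Depp1, Ddit4 and Slc25a25 were highest at day 0.

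The 9 genes were counted past 2-fold beside all genes. The 8097 features with a mean of at least 10 CPM over the sections served as background, and all 9 genes were among them. At day 1, 3 of 9 were at least 2-fold lower than at day 0 (Depp1, Ddit4 and Slc25a25), against 7.95% of all genes, and 2 were at least 2-fold higher (Trim63 and Fbxo32), against 15.3%. At day 3, 4 of 9 were lower (Klf15, Depp1, Ddit4 and Slc25a25), against 5.31%, and 1 was higher (Fbxo32), against 28.4%. At day 7, 4 of 9 were lower (Depp1, Pdk4, Ddit4 and Slc25a25), against 0.951%, and 1 was higher (Fbxo32), against 21.3%. The median log2 ratio of the 9 was -0.60, -0.38 and -0.32 at days 1, 3 and 7, and that of all genes tested was 0.21, 0.54 and 0.52. Depp1 and Slc25a25, which are among the lower genes on each day, were included for a decrease against this same day 0 section, so the counts and medians are a description and nothing is read from them. All 3 comparisons share the day 0 section, so a high day 0 value lowers a gene's ratio on every day.

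Ranked by their ratio, several of the 9 stood at the ends of the 8097 genes. Ddit4 had the 23rd lowest ratio at day 1, Depp1 the 84th and Slc25a25 the 88th, and Fbxo32 had the 79th highest. At day 3 Klf15 had the 65th lowest ratio, Depp1 the 78th, Slc25a25 the 84th and Ddit4 the 110th. At day 7 Depp1 had the lowest ratio of all, Slc25a25 the 3rd lowest, Ddit4 the 10th and Pdk4 the 48th. Depp1 and Slc25a25 were included for that decrease, and their ranks at days 1 and 3 rest on the same day 0 section. Nothing is therefore read from the ranks of Depp1 and Slc25a25. Foxo1 and Foxo3 lay near the middle at day 7, with 2855 and 2844 genes above them.

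The level of a section is a share of its RNA, so scaling mattered for part of these genes. TMM factors of edgeR, which allow for the changed make-up, lowered every log2 ratio by a common amount (-0.21, -0.55 and -0.61 at days 1, 3 and 7). Under them Foxo1 and Foxo3 at day 7 had log2 ratios of 0.12 each, with intervals that held 0, against 0.73 each in CPM. Trim63 at day 3 had 0.35 against 0.90. No count of genes past 2-fold moved by over 1.5 times under TMM factors.

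Relative to Acta1, the skeletal actin of the myofibre, the ligases stood higher still. Per 100000 Acta1 UMIs, Trim63 had 472, 3950, 2323 and 710 UMIs at days 0, 1, 3 and 7, and Fbxo32 had 43.6, 1078, 405 and 254. Trim63 at day 7 turned from a log2 ratio of -0.32 in CPM to 0.59 on this scale. The median log2 ratio of all genes tested was itself 1.19, 1.94 and 1.43 on this scale at days 1, 3 and 7. Slc25a25 went from 232 per 100000 Acta1 UMIs at day 0 to 94.5, 168 and 59.3, Depp1 from 129 to 50.5, 91.6 and 28.2, and Ddit4 from 252 to 52.7 and 127 at days 1 and 7, with a log2 ratio of -0.33 at day 3. Depp1, Ddit4 and Slc25a25 were thus lower on every day on this scale too, but at day 3 by less than 2-fold. Foxo1, lower in CPM at days 1 and 3, and Foxo3, lower at day 1, were higher than at day 0 on all later days on this scale. At days 1 and 3 the log2 ratios of Foxo1 (0.33 and 1.06) and Foxo3 (0.38 and 1.33) lay below the median of all genes. At day 7 both (1.63) lay above it.

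Few genes at all were lower relative to Acta1. At day 1, 3 of the 9 were at least 2-fold lower on this scale, against 1.7% of all genes, and 3 were at least 2-fold higher, against 60.4%. At day 3 none of the 9 was lower (0.383% of all genes) and 5 were higher (86.3%). At day 7 the 2 of the 9 that were lower (0.111% of all genes) were Depp1 and Slc25a25, which were chosen for that decrease, so nothing is read from this count, and 3 were higher (79.8%).

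Within muscle-rich spots, where myofibre genes held at least 20% of UMIs, the main differences were also seen. Such spots numbered 2018, 517, 562 and 1053 at days 0, 1, 3 and 7. Trim63 had 282, 606, 956 and 267 CPM there, so in these spots it was highest at day 3. Fbxo32 had 25.2, 266, 176 and 90.0 CPM. Depp1 had 72.3, 14.3, 13.0 and 7.07 CPM, Ddit4 147, 26.0, 52.9 and 29.8 CPM, and Slc25a25 138, 43.7, 83.4 and 25.4 CPM. Slc25a25 at day 3 was 1.66-fold below day 0 in muscle-rich spots against 3.66-fold in the whole section, while Depp1 was 5.56-fold below against 3.72-fold. Foxo1 was at least 2-fold lower at day 1, on 23 UMIs, and Foxo3 at day 7 had a log2 ratio of 0.14 (-0.07 to 0.34), against 0.73 in the whole section.

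In these spots 4 of 9 genes were at least 2-fold lower at day 1 (14.6% of all genes) and 2 higher (7.05%), 3 lower at day 3 (4.58%) and 2 higher (7.53%), and 4 lower at day 7 (0.827%) and 1 higher (6.51%). Muscle-rich spots still differed in composition, with a mean myofibre share of 28.3% at day 0 and 22.8% to 23.2% later. In spots held to a share of 20% to 25%, a range chosen after seeing the data, the counts stayed within 1.5 times of these, and Trim63 had log2 ratios of 1.34, 2.08 and 0.13. Fbxo32 was 6.57-fold, 4.27-fold and 2.26-fold higher there at days 1, 3 and 7, against 10.5-fold, 6.96-fold and 3.57-fold in all muscle-rich spots.

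**Figure D2:**
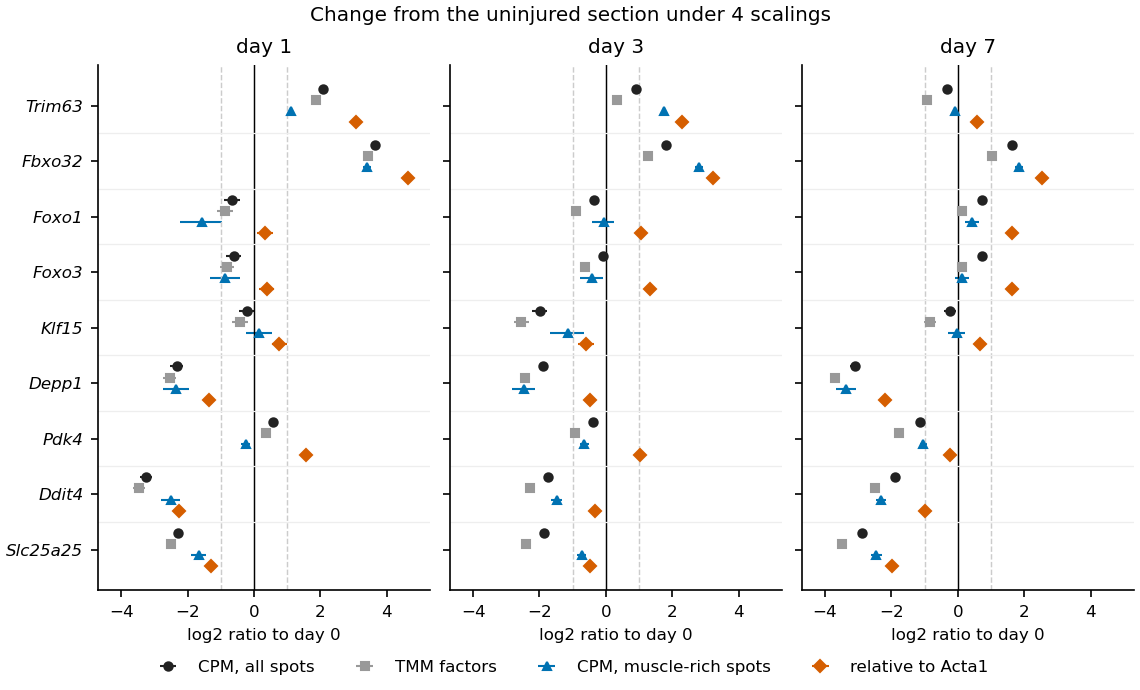
Log2 ratio to day 0 of each gene at days 1, 3 and 7 under 4 scalings (all spots in CPM, TMM factors, muscle-rich spots in CPM, relative to Acta1), with 95% counting intervals. Dashed lines mark 2-fold. Fbxo32 lay to the right of 0 and Depp1, Ddit4 and Slc25a25 to the left in every panel and scaling, whereas Foxo1 and Foxo3 crossed 0 with the scaling at days 1 and 3.

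Within a section, the 2 ligases did not simply follow the amount of myofibre RNA. At day 1 Trim63 had 420 CPM in spots with under 5% of myofibre UMIs, 1252 CPM at 5 to 10%, 1484 CPM at 10 to 20% and 606 CPM in the muscle-rich spots. Fbxo32 had 71.2, 187, 418 and 266 CPM in the same classes. Both thus peaked in spots of intermediate share at day 1. At day 3 they were highest in the muscle-rich spots, with 195, 466, 789 and 956 CPM for Trim63 and 34.2, 97.4, 126 and 176 CPM for Fbxo32. At day 7 Trim63 went from 37.9 CPM in the poorest spots to 267 in the richest.

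The classes differed in depth and in other cells as well. At day 1 the median depth was 2630, 2876, 6940 and 8097 UMIs per spot from the poorest to the richest class, and monocyte/macrophage genes took 4472, 1923, 1300 and 892 CPM. At day 3 the order of depth was reversed, from 25106 to 9717.5 UMIs, and monocyte/macrophage genes took 12909 CPM in the poorest class and 1691 in the richest. The part of these differences in the ligase values was not tested.

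The other genes divided into those that lay with myofibre RNA and those that did not. Slc25a25 was higher with each class at day 3 (14.3, 30.5, 54.3 and 83.4 CPM), and Klf15 went from 1.09 CPM to 6.33 CPM. Depp1 did not follow it, with 10.6, 31.1, 28.4 and 13.0 CPM. Pdk4 was highest in the middle at day 3 (46.5, 139, 143 and 80.0 CPM). At day 7 Foxo3 ran the other way, with 54.6, 54.9, 29.1 and 20.5 CPM, as did Ddit4 with 59.4, 60.1, 38.2 and 29.8 CPM, while Pdk4 had 9.01, 31.5, 69.7 and 61.2 CPM.

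**Figure D3:**
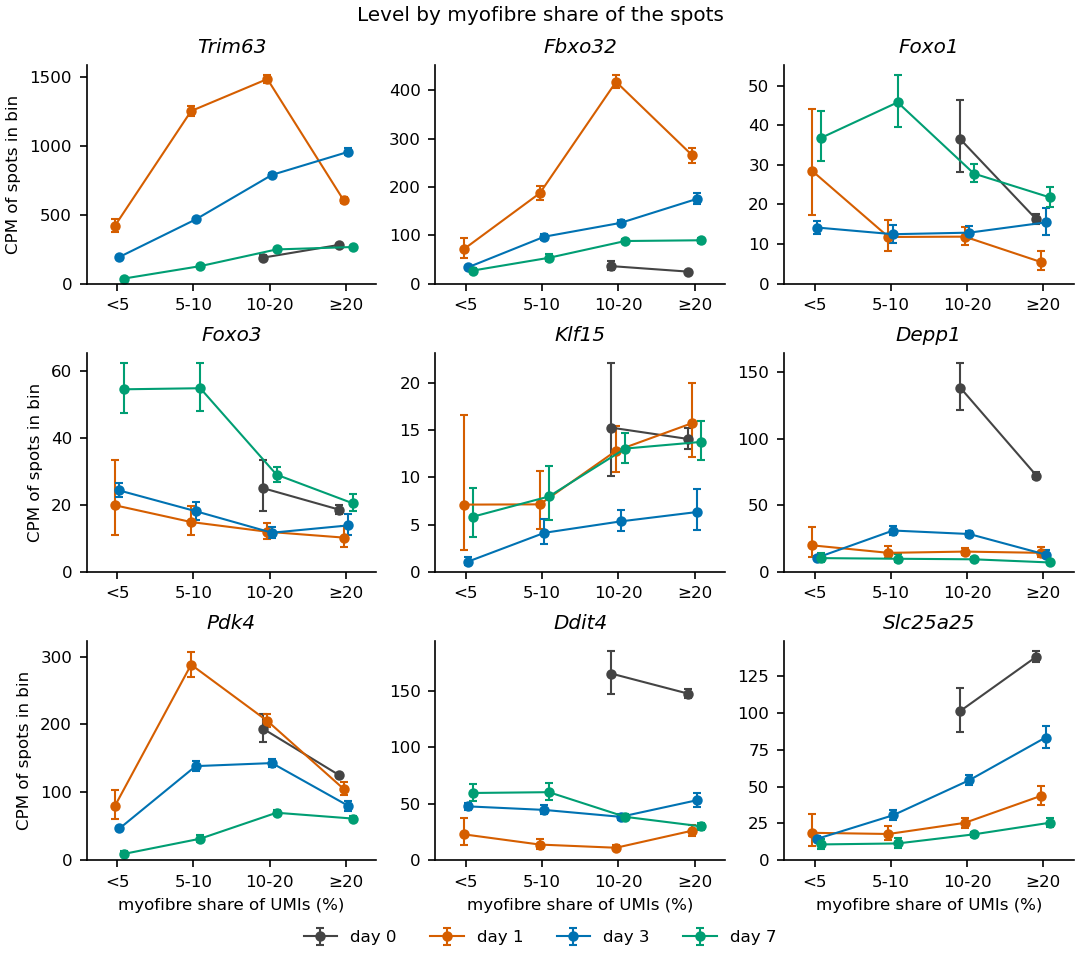
Level of each gene (CPM, linear axis from 0) in spots grouped by the share of their UMIs from adult myofibre genes, with 1 line per day and 95% counting intervals. Classes of fewer than 20 spots are not drawn, which leaves day 0 with the upper 2 classes. Trim63 peaked at 10 to 20% at day 1 (1484 CPM) and at 20% or more at day 3 (956 CPM), and Foxo3 was highest in myofibre-poor spots at day 7.

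Spots were then ranked by the share of each marker list, and the 10% of spots richest in a list were set against the rest of the section. Depp1 was higher in the endothelial-rich spots on each day, with ratios of 2.07 (interval 1.90 to 2.26), 1.48 (0.970 to 2.19), 1.76 (1.48 to 2.08) and 1.93 (1.44 to 2.54) at days 0, 1, 3 and 7. Foxo1 (1.70, 1.77, 1.62 and 1.68) and Ddit4 (1.83, 1.62 and 1.87 at days 1, 3 and 7, and an interval of 1.11 to 1.29 at day 0) were higher there too, and their intervals left out 1 on each day, unlike that of Depp1 at day 1. The ratios of Slc25a25 were 0.895, 0.729, 0.952 and 0.770. Against the adult myofibre list, Slc25a25 had ratios of 1.12, 1.80, 2.27 and 1.56 and Depp1 of 0.502, 0.821, 0.519 and 0.662. Depp1 and Slc25a25 thus differed in the spots they lay with. Ratios as high as those with the endothelial list were seen with other lists. In spots rich in slow myofibre genes, Depp1 had 1.25, 1.88, 1.93 and 0.934 at days 0, 1, 3 and 7. At day 0 Foxo1 had 1.81 in fibroblast-rich, 1.70 in adipocyte-rich and 1.55 in macrophage-rich spots.

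In the macrophage-rich spots at day 3, Trim63 had a ratio of 0.220 to the rest, Slc25a25 of 0.283 and Depp1 of 0.411, while Foxo3 had 1.87 (1.62 to 2.16) and Ddit4 1.05. Adult myofibre genes held 1.52% of UMIs in those spots, against 10.6% in the rest. In the spots richest in cartilage genes at day 7, Foxo3 had a ratio of 2.04 (1.76 to 2.35), Ddit4 of 1.49 and Foxo1 of 1.38, while Trim63 had 0.329. Foxo3 also had a ratio of 1.96 in the fibroblast-rich spots at day 7. Its level was higher in myofibre-poor spots of that section too, and which cells held its RNA was not tested. These lists share spots, and the spots of a section are no replicates.

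**Figure D4:**
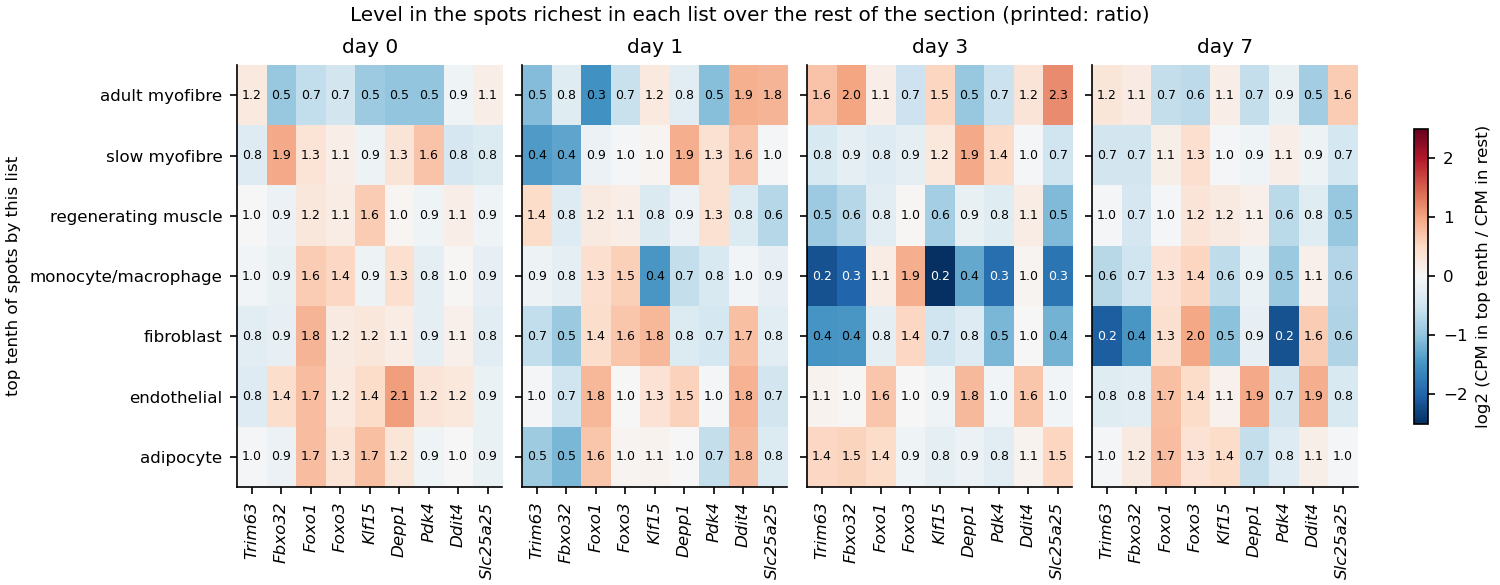
Ratio of each gene's CPM in the 10% of spots richest in a marker list to its CPM in the rest of the section, by day, with the ratio printed in each square and the colour on a log2 scale. Depp1, Foxo1 and Ddit4 were above 1 in endothelial-rich spots on each day. Trim63, Fbxo32, Klf15, Depp1, Pdk4 and Slc25a25 had their lowest ratios of the day 3 panel in macrophage-rich spots.

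Spot by spot, each spot was thinned to 2000 UMIs to even out depth. Trim63 was then seen in 41.8%, 75.4%, 59.9% and 35.0% of spots at days 0, 1, 3 and 7, against 93.3%, 86.6%, 95.0% and 80.7% of spots without thinning. Fbxo32 was seen in 4.71%, 41.2%, 18.3% and 14.8% of thinned spots. Depp1 was seen in 13.1%, 2.84%, 3.87% and 1.56%, and Slc25a25 in 23.4%, 5.24%, 8.48% and 3.76%. Over the thinned spots the variance of Trim63 over its mean was 1.05 at day 0, within the range of the other genes, where 1 is the value of pure counting. It was 2.79, 1.70 and 1.16 at days 1, 3 and 7, above the other 8 on each of those days. Trim63 also had the highest mean count on each day (2.43 at day 1, with Fbxo32 next at 0.634). Since this measure can rise with the mean, it does not set Trim63 apart from the others. Spearman's rho between Trim63 and Fbxo32 over the 2154 thinned spots of day 1 was 0.28. It was 0.002, 0.15 and 0.04 at days 0, 3 and 7, all as a description of sparse counts that share tissue.

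The genes of the uninjured section also differed by the share of slow fibre genes. Muscle-rich spots were ranked by the slow myofibre share (Myh7, Tnnt1 and other slow genes), and the upper and lower 25%, 504 spots each, were compared. Fbxo32 had 41.6 CPM at the slow end and 18.1 CPM at the fast end, a ratio of 2.30 (1.92 to 2.77). Pdk4 had a ratio of 1.67 (1.54 to 1.81), Depp1 of 1.63 (1.47 to 1.83) and Foxo1 of 1.59 (1.27 to 2.01). Slc25a25 had 0.768 (0.712 to 0.829), Trim63 0.817 (0.774 to 0.862) and Ddit4 0.862 (0.800 to 0.929), and the intervals of Foxo3 and Klf15 held 1. The ligases thus lay at opposite ends. At day 7 Fbxo32 had a ratio of 0.667 (0.559 to 0.795) and Pdk4 of 0.738 (0.602 to 0.904), on the other side of 1 from day 0. The slow genes took only 0.605% of the muscle gene UMIs at the slow end at day 0. The day 0 spots richest in slow genes also held less adult myofibre RNA (22.7% of UMIs against 28.4% in the rest). Over thinned day 0 spots, Spearman's rho with the slow list was 0.079 for Pdk4, 0.059 for Fbxo32, 0.033 for Depp1 and 0.0097 for Foxo1. With the adult share held constant it was 0.025, 0.030, -0.010 and -0.0097. The day 0 ratios above therefore do not separate slow fibre share from a low adult share.

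Other genes of these pathways were counted in lists. Over all genes tested, 7.95%, 5.31% and 0.951% were at least 2-fold lower at days 1, 3 and 7. At least 2-fold higher were 15.3%, 28.4% and 21.3%. The lists here and below hold few genes, so nothing is read from their counts beside these shares. Of 9 tested partners of the ligase system, Fbxo40 was the only one at least 2-fold lower, at days 1 and 3 (241, 95.4 and 85.1 CPM at days 0, 1 and 3). Cblb was the only one higher, at days 3 and 7 (log2 ratio 1.10 at day 3). In muscle-rich spots none of these partners was past 2-fold at days 3 and 7. In the whole section 13 of 15 adult myofibre genes were themselves at least 2-fold lower at day 3. Of 11 tested autophagy genes none was lower, and 3, 2 and 2 were higher at days 1, 3 and 7. Gabarapl1, an autophagosome protein and FoxO target, went from 22.3 CPM to 69.2, 46.9 and 57.6. The lysosomal protease Ctsl had a log2 ratio of 2.30 at day 3. The median log2 ratio of the autophagy list was 0.34, 0.56 and 0.68, close to that of all genes at days 3 and 7.

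Of 12 tested other FoxO genes, 2 were higher at day 1 (Eif4ebp1, an inhibitor of cap-dependent translation, 2.24 and Gadd45a 1.74) and 1 lower (Sesn3, -1.68). At day 7 Pik3ip1 was higher (1.61) and the insulin receptor substrate Irs2 lower (-1.03). Of 18 tested other glucocorticoid genes, 3 were higher and 1 lower at day 1, 3 higher and 1 lower at day 3, and 1 higher and 3 lower at day 7. The metallothioneins Mt1 and Mt2, which also answer metals and inflammation, went from 331 and 185 CPM at day 0 to 3466 and 1799 at day 1 and 3150 and 2133 at day 3. Fkbp5, which tempers the receptor, was higher at day 1 (1.28). Tsc22d3 (GILZ) and Per1, named after their values were seen, had log2 ratios from -0.06 to 0.24 on the 3 days. Arrdc2 was lower at days 3 and 7 (-2.51 and -1.40). Genes of this list went in both directions, as genes did over the whole section.

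Of 11 tested fuel genes of fasting, 3 were lower and 2 higher at day 1, 4 lower and 2 higher at day 3, and 1 in each direction at day 7. Angptl4, a lipoprotein lipase inhibitor, had 11.3, 54.4, 141 and 12.2 CPM at days 0, 1, 3 and 7. Ucp3, a muscle mitochondrial carrier induced by fasting, had log2 ratios of -1.90 and -1.25 at days 3 and 7. Pdk2, a relative of Pdk4, had -1.23 and -1.31 at days 1 and 3. Of the carriers most like Slc25a25, Slc25a24 was higher in the whole section (2.13 and 1.80 at days 3 and 7), unlike Slc25a25. In muscle-rich spots none of the tested relatives of Slc25a25 was at least 2-fold higher on those days.

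Clock genes also differed between the sections. Dbp, an output of the circadian clock, had 9.05, 63.7, 8.00 and 96.6 CPM at days 0, 1, 3 and 7, and Arntl, which peaks in the opposite phase, had log2 ratios of -2.89, -0.37 and -1.46. The hour of sampling was not given in the sources used here, and the part of the clock in the values of the 9 genes was not tested. Of 8 tested immediate early genes, 5 were higher on each day (Junb reached a log2 ratio of 4.75 at day 3), whereas the nuclear receptors Nr4a1 and Nr4a3, which are induced by exercise in muscle, were below the uninjured level on all 3 later days. Nr4a3 had 46.2, 6.38, 16.1 and 5.83 CPM.

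**Figure D5:**
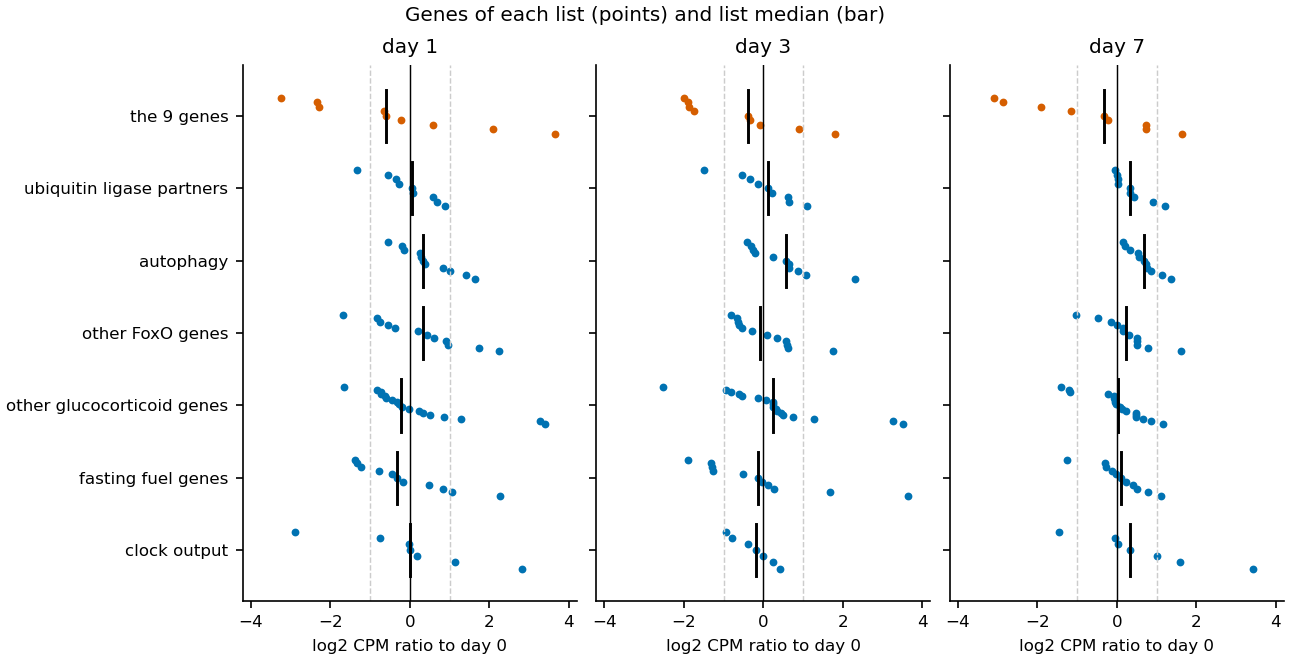
Log2 CPM ratio to day 0 of each tested gene (points) in the 9 genes and in 6 lists, with list medians as bars and dashed lines at 2-fold. The 9 genes spread from -3.24 to 3.65 at day 1, and the autophagy list had no gene past 2-fold to the left.

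The genes with the most similar course were found by the distance between log2 ratios over days 1, 3 and 7, among the 8097. Slc25a25 and Depp1 were each other's nearest gene (distance 0.23), a closeness that their choice by the day 7 decrease sets in part, and the next for both was Nr4a3 (0.68 and 0.65), then Ppp1r3c, a glycogen-targeting subunit of protein phosphatase 1. Trim63 was nearest to Lmcd1 (0.36), Thbd and Twf2, and Fbxo32 to Tnfrsf23 (0.74), Plk2 and Cnksr1. Foxo3 was nearest to Ankrd46 (0.05), and Foxo1 to Clstn1 (0.10), the distance between Foxo1 and Foxo3 being 0.28. Pdk4 was nearest to Pde4d (0.15), and Ddit4 to A930003A15Rik (0.72) and Dusp8. With 4 sections and 1 shared day 0, such likeness is a description only.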

How the data were processed

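The deposited files were count matrices, with unnormalized UMI counts that the authors had obtained with 10x Genomics software for 4 sections on barcoded capture slides. The file headers name Space Ranger 1.2.0, the study's methods and the labels name other versions, and the submitters' processing notes name mm10. The labels also speak of down-sampling reads, but the counts were whole numbers and totals differed between sections. A spot holds several cells, so no doublet caller or deconvolution was used.

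The members and lists were chosen with earlier results of these data known. Counts were summed over all 10835 spots per section and scaled to CPM, with exact Poisson intervals, and exact conditional intervals for ratios, at 95%. Genes with a mean of at least 10 CPM (8097) were compared, and 2-fold was the limit for a call. Named genes were all 9 members, list genes past 2-fold on any day with the list extremes first, and, from the 3 nearest genes of each member by log2 ratio, those given in the text; the nearest genes of Klf15 are not reported here. Tsc22d3, Per1 and relatives of members were named after their values were seen. Spots were thinned to 2000 UMIs in 20 draws (17, 513, 9 and 84 shallower spots left out at days 0, 1, 3 and 7). Counting intervals cover no difference between animals. Alternatives were other scalings, filters, limits for muscle-rich spots, thinning depths and spot quantiles. Calculations were tested on simulated data. Scaling factors came from DESeq2 1.42.0 and edgeR 4.0.16 in R 4.3.3. Sums and intervals were computed in Python 3.11.15 with pandas 2.3.3, SciPy 1.17.1 and NumPy 2.4.6, and drawn with matplotlib 3.10.9. Spot positions and tissue images were not used here.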

Additional observations from a re-analysis of the deposited data

How the results depend on the processing

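No paired analysis was possible because each day was 1 section, and for the same reason no section could be left out. Counts of the 9 genes past 2-fold stayed within 1.5 times under DESeq2 size factors or TMM factors, with mitochondrial, haemoglobin and adult myofibre genes out of the total, and in spots with at least 1000 UMIs. Relative to the adult myofibre list or to Acta1, the count of lower genes at day 3 was 0 instead of 4 and that of higher genes 5 instead of 1. At day 7 the higher genes numbered 3 instead of 1 on both scales, and the lower ones 2 instead of 4 relative to Acta1. By construction these scales raise all ratios where myofibre RNA is low. With the muscle-rich limit set without Acta1, 1 gene instead of 2 was higher at day 1 and 5 instead of 3 were lower at day 3. A limit of 30% was not run as a comparison, since 0 spots at day 1 and 1 spot at day 3 passed it. Between the slow and fast ends at day 0, 1 gene (Fbxo32) was at least 2-fold apart, and 0 were when spots were split at the median. Shares over all genes are not given for these limits and splits or for the adult list scale, so nothing is read from the counts. The Foxo1 log2 ratio of the slow to the fast end at day 1 was -1.23 on 4 and 8 UMIs and 0.32 with the split at the median, and depth limits it.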
